A study of Rattus norvegicus with 18 samples.

Results

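The activity-dependent immediate early genes Fos, Fosb, Junb, Egr1, Egr2, Egr4, Nr4a1, Npas4, Arc and Dusp1 were examined in rat cerebral cortex after subarachnoid hemorrhage (SAH), bleeding into the space around the brain. These 10 genes were taken by symbol from a count table of 30735 genes, and all 10 were among the 18444 genes that passed the filter on low counts. RNA-seq was carried out on 18 cortex libraries from adult Sprague Dawley rats, with 6 libraries in each of the groups sham, SAH 1d and SAH 7d. SAH was produced by endovascular perforation, in which a filament is pushed through the wall of an artery at the base of the brain, and cortex was taken 1 day or 7 days later. Sham rats underwent the same operation without the perforation, so anesthesia and vessel surgery are common to all groups. The interval between sham surgery and sampling is not given in the sources used here. The labels describe cortex of both sides, whereas the study's methods describe the cortex of the operated side.

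Immediate early genes are switched on within minutes of a stimulus, without the need for newly made protein. In cortical neurons, calcium entering through synaptic receptors and channels activates kinases that phosphorylate CREB and the partners of SRF, factors that wait at the promoters of these genes, and the transcripts are short lived, so their level follows recent activity. Growth factors, injury and stress can induce many of the same genes in glia and vessels, whereas Npas4 and Arc are known as largely neuronal. Most of the 10 encode transcription factors: Fos, Fosb and Junb are partners in the AP-1 dimer, Egr1, Egr2 and Egr4 are zinc finger proteins of the EGR family, Nr4a1 is an orphan nuclear receptor, and Npas4 is a basic helix-loop-helix factor induced by calcium. Arc acts at the synapse in the removal of AMPA receptors, and Dusp1 is a phosphatase that switches off MAP kinases.

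Some members share sequence motifs close to their start. RefSeq promoters on build GRCr8 matched 8 of the 10 genes, with Fos and Arc as the exceptions. The 250 bases before the annotated start are given here for Egr2, which carries both an SRF and a CREB motif, for Egr4, Nr4a1 and Dusp1, which carry several CREB motifs, and for Npas4, the gene with the clearest difference between groups. Capitals mark matches, on either strand, to the CRE core TGACG, to the full CRE TGACGTCA and to the CArG box bound by SRF. The windows are chr20:21054442-21054691 (minus strand) for Egr2, chr4:119607818-119608067 (minus strand) for Egr4, chr7:134259888-134260137 (plus strand) for Nr4a1, chr10:17184603-17184852 (plus strand) for Dusp1 and chr1:211716103-211716352 (minus strand) for Npas4, and each is written 5′ to 3′ on the strand of the gene.
Egr2: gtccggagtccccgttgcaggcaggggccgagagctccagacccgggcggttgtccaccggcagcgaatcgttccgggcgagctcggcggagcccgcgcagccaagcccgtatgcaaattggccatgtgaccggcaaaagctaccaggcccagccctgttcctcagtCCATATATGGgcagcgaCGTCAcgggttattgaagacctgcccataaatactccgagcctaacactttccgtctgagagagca
Egr4: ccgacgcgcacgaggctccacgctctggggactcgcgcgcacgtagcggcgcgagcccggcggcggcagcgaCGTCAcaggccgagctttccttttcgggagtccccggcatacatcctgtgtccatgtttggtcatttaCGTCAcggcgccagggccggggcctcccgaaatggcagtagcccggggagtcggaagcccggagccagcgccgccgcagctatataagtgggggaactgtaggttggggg
Nr4a1: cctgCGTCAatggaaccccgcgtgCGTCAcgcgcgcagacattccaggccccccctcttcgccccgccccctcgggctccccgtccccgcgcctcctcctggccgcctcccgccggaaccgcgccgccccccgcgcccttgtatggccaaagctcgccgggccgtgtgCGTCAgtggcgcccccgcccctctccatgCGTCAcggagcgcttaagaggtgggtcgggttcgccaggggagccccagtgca
Dusp1: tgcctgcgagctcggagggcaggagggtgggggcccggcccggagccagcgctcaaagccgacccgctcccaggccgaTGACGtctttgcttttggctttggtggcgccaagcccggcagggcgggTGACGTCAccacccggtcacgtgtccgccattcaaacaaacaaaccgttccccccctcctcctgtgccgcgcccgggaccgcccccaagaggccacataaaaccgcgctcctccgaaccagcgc
Npas4: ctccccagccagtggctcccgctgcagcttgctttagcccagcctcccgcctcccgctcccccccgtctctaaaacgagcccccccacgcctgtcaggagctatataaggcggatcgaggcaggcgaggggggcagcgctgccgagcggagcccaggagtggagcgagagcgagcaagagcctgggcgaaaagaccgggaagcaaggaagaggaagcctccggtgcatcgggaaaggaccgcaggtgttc

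The CRE core was found in 6 of the 8 windows (Junb, Egr1, Egr2, Egr4, Nr4a1 and Dusp1), against 18.2% of 33469 promoters of the same length. Nr4a1 held 4 matches, Dusp1 held 3, of which 2 overlapped as the full CRE on opposite strands, Egr1 and Egr4 held 2 each, and Junb and Egr2 held 1 each. The full CRE was present in 1.59% of promoters and among the members in Dusp1. A CArG box was found in 1.5% of promoters and in Egr1, with 2 matches, and Egr2, with 1. In both genes a CArG box lay at bases -83 to -74 and a CRE core at bases -66 to -62 from the start, a pair of motifs held together by 0.23% of promoters. An EGR site (GCGNGGGCG, 4.29% of promoters) was found in Nr4a1, and the AP-1 site TGANTCA (6.34% of promoters) was found in none of the 8. Neither a CArG box nor a CRE core lay in the windows of Fosb and Npas4, which says only that these letters are absent from those 250 bases.

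**Figure D1:**
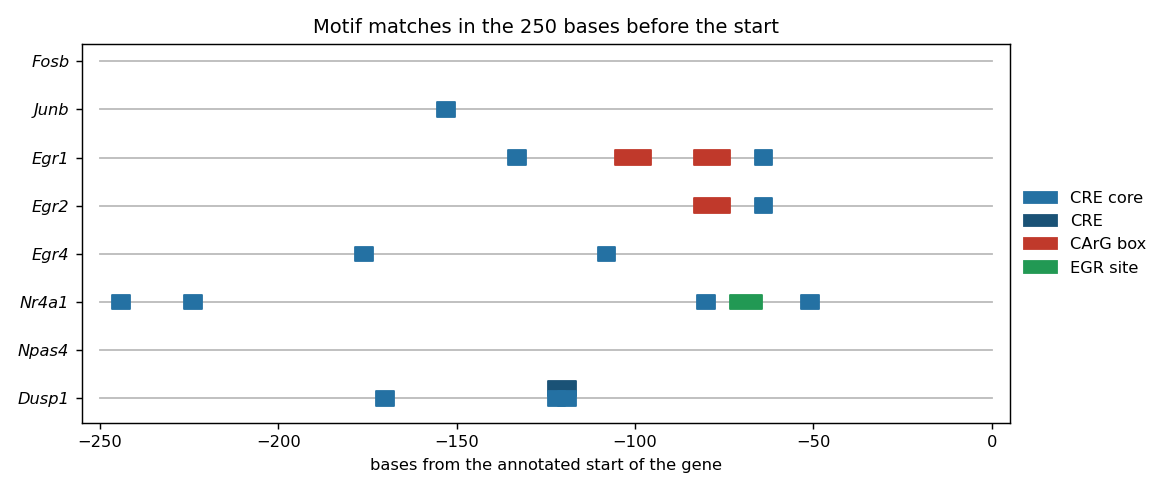
Positions of motif matches in the 250 bases before the annotated start (0 on the horizontal axis, in bases) of the 8 genes with a promoter entry. Each box spans 1 match on either strand, the full CRE of Dusp1 is drawn above its 2 overlapping CRE cores, and Egr1 and Egr2 share the positions of their proximal CArG box and CRE core.

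Libraries held 27270026 to 38271014 counts, and a member received between 19 counts (Npas4 in SAH 7d-5) and 13100 counts in a library. Levels are given as CPM (counts scaled to the library total), with library totals adjusted by TMM factors. Fold changes are on the log2 scale. Their standard error (SE) was calculated as the size of the log2 fold change over the square root of edgeR's quasi-likelihood F statistic. Adjusted p-values are those of edgeR's quasi-likelihood test with Benjamini-Hochberg adjustment over all 18444 genes, 6 libraries against 6. Between genes, levels can be compared only per length. In sham cortex the median level was 62.1 FPKM for Egr1, 32.9 for Junb, 31.0 for Dusp1, 28.1 for Arc and 18.05 for Nr4a1. It was 9.37 FPKM for Fos, 9.05 for Egr4, 2.999 for Npas4, 2.02 for Fosb and 1.90 for Egr2. The neuronal markers of the labelled tissue were present in every library, with 8 pan-neuronal genes summing to 7264 to 10500 CPM in sham, 5468 to 6711 CPM in SAH 1d and 2686 to 9840 CPM in SAH 7d. In these and other cell type markers SAH 7d-5, and to a lesser degree SAH 1d-3, stood apart from their groups. Among the sham libraries, sham-1 also stood apart in several lists. Its pan-neuronal markers summed to 7264 CPM against 9300 to 10500 CPM in the rest of sham. Its astrocyte markers summed to 6474 against 3965 to 4830 CPM and its microglia markers to 455 against 259 to 340 CPM. Its meningeal fibroblast markers, at 372.5 CPM, lay within the range of the rest. For 9 members sham-1 was the highest sham library, so it set most of the sham maxima used below. Where the call of a member changed without SAH 7d-5 or without SAH 1d-3, its edgeR adjusted p without that library is also given.

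The first question was which early genes differed from sham 1 day after the bleed. Npas4, Fos and Fosb were higher in SAH 1d, by log2 fold changes of 2.25, 2.03 and 2.34, and the other 7 members did not pass the test. Across all genes tested, 25.4% were called in either direction in this comparison, 14.9% were called higher and 10.5% lower, so 3 of 10 is close to the share called in either direction. The median log2 fold change of the 10 members was 0.84, against 0.01 over all genes. This median did not stand for a rise in every library. Summed over the members, sham held 389.1 to 779.5 CPM. The sum was lower in SAH 1d-1 (300.4), SAH 1d-4 (311.4) and SAH 1d-6 (286.9). It was within that range in SAH 1d-2 (545.1) and higher in SAH 1d-3 (1289) and SAH 1d-5 (2205). In mean log2 CPM of the members, SAH 1d-1, SAH 1d-4 and SAH 1d-6 (4.32 to 4.37) lay just above the lowest sham library (4.31). In bulk tissue, more cells expressing a gene and more RNA per cell cannot be told apart.

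Npas4 (ENSRNOG00000020009) separated the groups completely. Its level was 4.76 CPM in the lowest, 7.88 in the median and 12.0 in the highest sham library. In SAH 1d it was 14.2, 24.3 and 118 CPM. The lowest SAH 1d library stood above the highest sham library, a pattern that 7.89% of all genes showed in this direction and 13.3% in either. In log2 terms the difference was 2.25 (SE 0.49, edgeR adjusted p = 0.00593), and a two-sided exact permutation test of the mean log2 CPM gave p = 0.00216, the smallest that the 924 splits of 12 libraries allow. Without SAH 1d-5, the library at 118 CPM, the other 5 SAH 1d libraries lay between 14.2 and 28.3 CPM, all still above sham. Npas4 passed the threshold in all 12 fits that left out 1 library and in all 11 other alternatives for this comparison, with log2 fold changes between 1.46 and 2.42.

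Fos (ENSRNOG00000008015), the founding AP-1 subunit, spanned 11.8 to 26.7 CPM in sham, with a median of 15.8. In SAH 1d the lowest library had 17.5 CPM, the median was 24.2 and the highest had 212. Within SAH 1d, 3 libraries stayed inside the sham range, SAH 1d-2 lay just above it at 28.1 CPM, and SAH 1d-5 and SAH 1d-3 reached 212 and 132 CPM. For Fos, the log2 fold change was 2.03 (SE 0.63, edgeR adjusted p = 0.0319).

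Fosb (ENSRNOG00000046667), a relative of Fos whose truncated product accumulates on repeated stimulation, ran from 5.74 CPM through a median of 7.39 to 15.6 CPM in sham. SAH 1d libraries ran from 7.44 through 9.89 to 148 CPM. In 4 of the 6 SAH 1d libraries Fosb stayed within the sham range, and it stood at 148 CPM in SAH 1d-5 and 82.8 CPM in SAH 1d-3. For Fosb, the log2 fold change was 2.34 (SE 0.76, edgeR adjusted p = 0.0393).

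The calls of Fos and Fosb did not survive the loss of single libraries. Each lost its call without SAH 1d-3 (edgeR adjusted p = 0.0504 for Fos and 0.0600 for Fosb), without SAH 1d-5 (0.0838 and 0.116), and without any one of sham-2 to sham-6. The lowest log2 fold changes in these fits came without SAH 1d-5, at 1.32 for Fos and 1.44 for Fosb. In the exact permutation test of mean log2 CPM, which weighs each library alike, Fos had p = 0.0693 and Fosb p = 0.171. With limma voom and sample quality weights neither was called (log2 fold change 0.92, adjusted p = 0.185 for Fos and 0.85, adjusted p = 0.305 for Fosb).

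Junb (ENSRNOG00000042838), the AP-1 partner of Fos and Fosb, had 36.7, 61.0 and 73.9 CPM in the lowest, median and highest sham library. The corresponding SAH 1d values were 48.3, 69.7 and 283 CPM. SAH 1d-5, SAH 1d-3 and SAH 1d-2 exceeded every sham library and the other 3 lay within the sham range. The log2 fold change of 1.05 (SE 0.43) had an edgeR adjusted p of 0.0907.

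**Figure D2:**
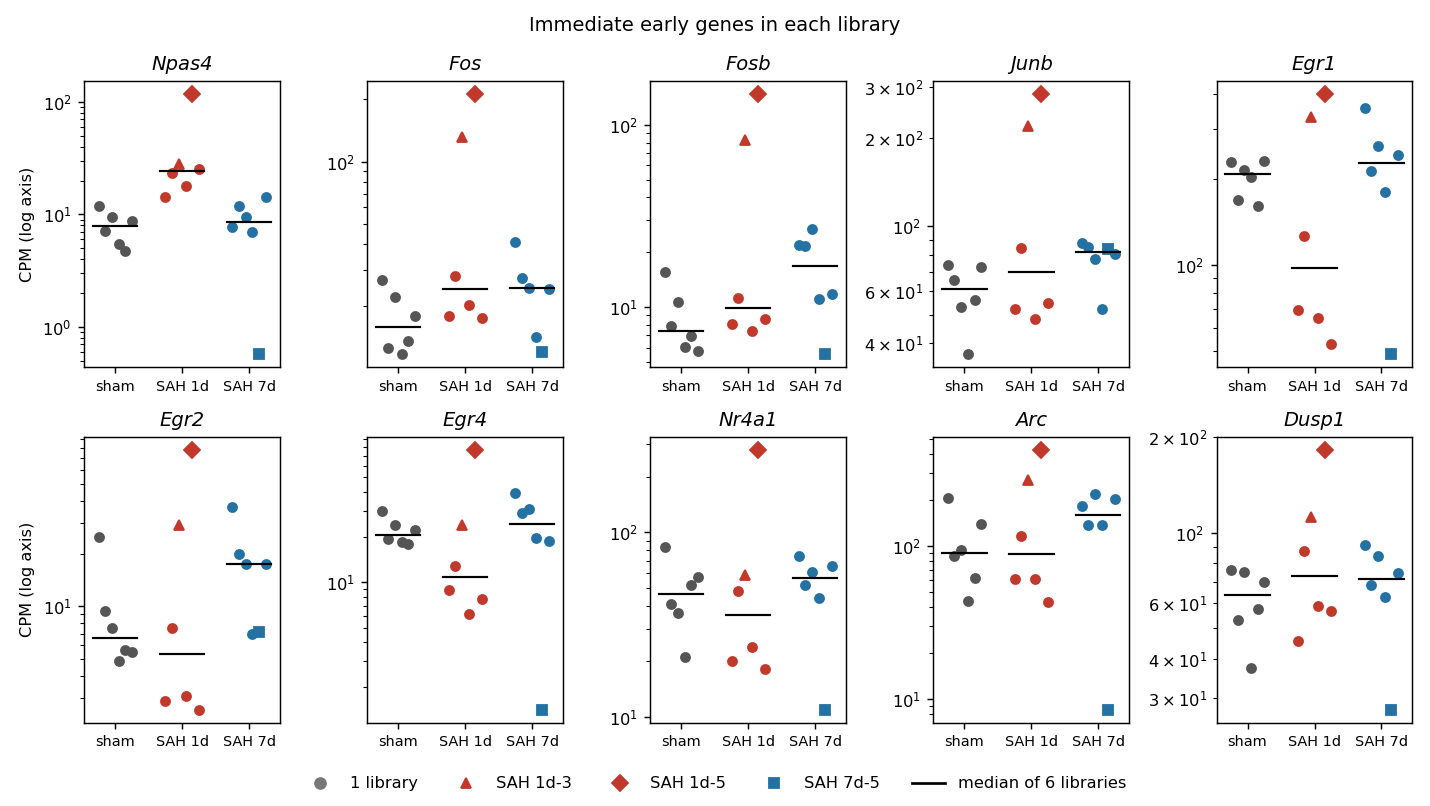
Level of each of the 10 genes in every library, in CPM on a log axis whose range differs between panels, with sham in grey, SAH 1d in red and SAH 7d in blue. Points are single libraries, black lines are medians of 6, and SAH 1d-3, SAH 1d-5 and SAH 7d-5 have their own symbols; SAH 1d-5 is the highest SAH 1d library for all 10 genes, and Npas4 is the gene whose SAH 1d and sham points do not overlap.

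The EGR genes split the SAH 1d group instead of shifting it. Egr1 (ENSRNOG00000019422), a sensor of ordinary cortical activity and the most abundant member per length in sham, had 161 CPM in the lowest, 209 in the median and 232 in the highest sham library. In SAH 1d it had 53.0, 97.9 and 399 CPM. A set of 4 libraries, at 53.0, 65.3, 69.6 and 126 CPM, were below every sham library, and SAH 1d-5, at 399 CPM, and SAH 1d-3, at 332 CPM, were above every sham library. As a log2 fold change the group difference of Egr1 was -0.21 (SE 0.46, edgeR adjusted p = 0.768), and limma voom with sample quality weights, which gives discordant libraries less weight, called Egr1 lower (-1.05, adjusted p = 0.0372).

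Egr4 (ENSRNOG00000015719), a close relative expressed mainly in neurons, showed the same split. Sham libraries held 18.1 to 29.9 CPM with a median of 20.7, a narrow range, and SAH 1d libraries held 6.15 to 76.7 CPM with a median of 10.9. There were 4 SAH 1d libraries below every sham library, SAH 1d-3 was within the sham range at 24.0 CPM, and SAH 1d-5 was above it. The group difference of Egr4 was a log2 fold change of 0.05 (SE 0.53, edgeR adjusted p = 0.954), and -0.87 without SAH 1d-5.

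Egr2 (ENSRNOG00000000640), known also for its part in myelinating Schwann cells, had the widest spread of the 10 within SAH 1d. Its sham levels were 4.88, 6.56 and 24.7 CPM at the lowest, median and highest library, and its SAH 1d levels were 2.58, 5.33 and 78.2 CPM, a 30.3-fold span. A set of 3 SAH 1d libraries, at 2.58, 2.89 and 3.08 CPM, were below every sham library, SAH 1d-5 and SAH 1d-3 exceeded every sham library, and SAH 1d-2 was within. For Egr2, the log2 fold change was 1.10 (SE 0.82, edgeR adjusted p = 0.341), and -0.076 without SAH 1d-5.

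Nr4a1 (ENSRNOG00000007607), a nuclear receptor that needs no known ligand, had 21.0, 46.0 and 82.7 CPM in sham and 18.1, 35.7 and 280 CPM in SAH 1d. A single SAH 1d library, SAH 1d-5, exceeded the sham range, and 2 libraries, at 18.1 and 20.0 CPM, were below it. For Nr4a1, the log2 fold change was 0.63 (SE 0.63, edgeR adjusted p = 0.480), and -0.52 without SAH 1d-5.

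Arc (ENSRNOG00000043465), whose transcript is carried into dendrites, had 44.1, 90.5 and 207 CPM in sham and 43.2, 88.5 and 428 CPM in SAH 1d. The medians were nearly equal, and the libraries above every sham library were SAH 1d-5, at 428 CPM, and SAH 1d-3, at 270 CPM. For Arc, the log2 fold change was 0.63 (SE 0.55, edgeR adjusted p = 0.424). Dusp1 (ENSRNOG00000003977) had 37.4, 63.7 and 76.3 CPM in sham and 45.3, 73.0 and 183 CPM in SAH 1d, with SAH 1d-5, SAH 1d-3 and SAH 1d-2 above every sham library. Its log2 fold change was 0.56 (SE 0.31, edgeR adjusted p = 0.197), and it had the smallest spread within SAH 1d of the 10.

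Within SAH 1d the libraries kept much the same order across genes. SAH 1d-5 was the highest of the 6 for all 10 members, and it exceeded the highest sham library for all 10, whereas SAH 1d-3 did so for 8. Against the median of the other 5 SAH 1d libraries, SAH 1d-5 was 25.4-fold higher for Egr2, 17.2-fold for Fosb, 11.8-fold for Nr4a1, 10.5-fold for Fos, 5.03-fold for Npas4 and 3.12-fold for Dusp1. SAH 1d-3 was 9.65-fold higher for Fosb and 9.42-fold for Egr2 but 1.21-fold for Npas4. The lowest SAH 1d library was SAH 1d-6 for 5 members, SAH 1d-4 for 3 and SAH 1d-1 for 2. Neuronal markers in SAH 1d-5 were 0.94 to 1.31 times the median of the other 5 libraries. In SAH 1d-3 they were 0.42 (Rbfox3, the nuclear marker NeuN) to 1.17 times that median, and its 6 excitatory neuron markers summed to 774 CPM against 1570 to 1894 CPM in the other 5. Markers of blood cells and endothelial cells were high in SAH 1d-3. Monocyte and macrophage markers summed to 635 CPM against 108 to 142 CPM in the other 5, and neutrophil markers to 51.4 against 6.01 to 13.5 CPM. Endothelial markers summed to 317 against 145 to 176 CPM, whereas mural cell markers, also of vessels, summed to 147.7 against 135.7 to 147.3 CPM. Choroid plexus markers summed to 736 CPM in SAH 1d-4 and 1069 CPM in SAH 1d-6, against 21.9 to 50.6 CPM in the other 4. The levels of the 10 members summed to 311 CPM in SAH 1d-4, 287 CPM in SAH 1d-6 and 300.4 CPM in SAH 1d-1, which had 50.6 CPM of choroid plexus markers. The part of these tissue differences in the early gene levels was not tested.

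The spread of early genes between libraries was wide compared with that of other genes. The SD of log2 CPM over 6 SAH 1d libraries ranged from 0.75 (Dusp1) to 2.03 (Egr2), with a median of 1.34 over the members, against a median of 0.31 over all genes tested. Dusp1 had a larger SD in SAH 1d than 87.4% of all genes, and Egr2 than 99.5%. In sham the median SD of the members was 0.49 against 0.22 over all genes, and in SAH 7d it was 0.96 against 0.38. All 10 members were above the median gene in sham and in SAH 1d, and 9 were in SAH 7d, where Junb was the exception with an SD of 0.28. Within sham, sham-1 was the highest library for 9 members, and Egr1, with an SD of 0.23, varied least.

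The early genes also covaried among libraries of the same group. After the group mean of each gene was subtracted, Pearson's r over 18 libraries ranged from 0.43 (Junb and Npas4) to 0.96 (Fos and Fosb) among the 45 pairs, with a median of 0.85. Without SAH 1d-5 and SAH 7d-5, the libraries farthest from the median of the mean member profile, r ranged from 0.50 to 0.93 with a median of 0.81. Against the mean of the other 9 members, Npas4 had r = 0.80, which became 0.66 without those libraries, and Junb had 0.76, which became 0.88. All genes of a library share its tissue piece and its depth, so these correlations describe the libraries and carry no test.

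Profiles of genes outside the member list were ranked by likeness to the mean of the members over the 18 libraries. Genes with provisional symbols, such as LOC or RGD identifiers, were left out of this ranking. The genes most like the members were Nr4a3 (r = 0.95, Spearman's rho = 0.91, r = 0.89 without SAH 1d-5 and SAH 7d-5), Arl4d (0.93, 0.88 and 0.86), Egr3 (0.91, 0.86 and 0.85), Srf (0.87, 0.84 and 0.83) and Spry2 (0.86, 0.86 and 0.83). Nr4a3 and Egr3 are paralogs of members, Arl4d is a small GTPase of the ARF family, Srf encodes the protein that binds the CArG box, and Spry2 is an inhibitor of growth factor signaling. Nr4a3 had 10.3, 16.1 and 77.6 CPM in the lowest, median and highest SAH 1d library, with SAH 1d-5 the highest. Egr3 had 15.2, 17.0 and 84.9 CPM in SAH 1d, with SAH 1d-3 the highest, against 36.9 to 52.9 CPM in sham.

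**Figure D3:**
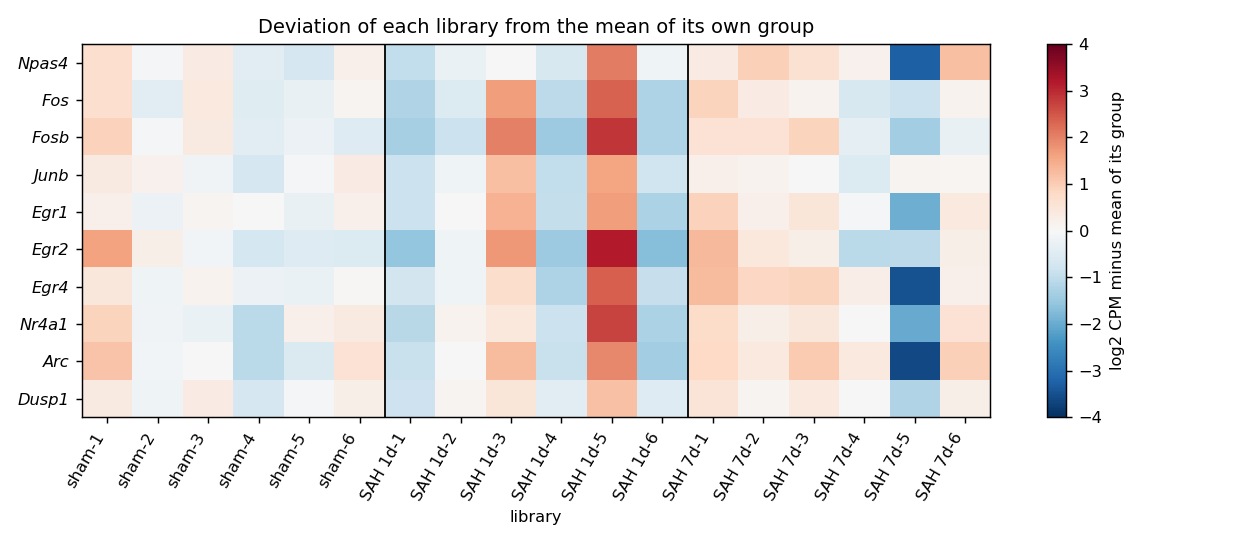
Deviation of each library from the mean log2 CPM of its own group, for the 10 genes (rows) in 18 libraries (columns), with red above and blue below the group mean. SAH 1d-5 and SAH 1d-3 are above their group for nearly every gene, and SAH 7d-5 is far below its group for Arc, Egr4 and Npas4.

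The next question was whether the early genes still differed from sham after 7 days. No member was called, and 0 of 18444 genes (0.0%) were called by edgeR in this comparison, although 2842 genes had an unadjusted p under 0.05 and DESeq2 called 459. All 10 log2 fold changes were above 0, from 0.08 for Egr4 to 0.91 for Fosb, but those of Egr1, Egr4, Nr4a1 and Npas4 turned below 0 in some alternatives. Fosb had 5.53, 16.8 and 26.96 CPM in the lowest, median and highest SAH 7d library, and 3 of the 6 were above every sham library (log2 fold change 0.91, SE 0.37, edgeR adjusted p = 0.284). Egr2 had 6.98, 17.4 and 36.9 CPM, with 1 library above every sham library (0.88, SE 0.49, edgeR adjusted p = 0.381). Junb had 52.2, 82.0 and 87.8 CPM, and 5 of 6 libraries were above every sham library (0.38, SE 0.17, edgeR adjusted p = 0.312). In the exact permutation test, Junb had p = 0.0584 and Fosb p = 0.0779.

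The remaining members overlapped sham widely at 7 days. Fos had 12.0, 24.4 and 40.7 CPM in the lowest, median and highest SAH 7d library, and Npas4 had 0.574, 8.54 and 14.4 CPM. Arc had 8.59, 161 and 219 CPM, Nr4a1 had 10.9, 56.1 and 74.1 CPM, and Dusp1 had 27.6, 71.4 and 91.2 CPM. Egr1 had 48.7, 229 and 356 CPM and Egr4 had 1.42, 24.3 and 39.7 CPM, so that both medians lay inside their sham ranges. No member separated SAH 7d from sham without overlap, against 1.23% of all genes. For these 7 genes the log2 fold changes against sham were between 0.08 and 0.49, with edgeR adjusted p-values from 0.442 to 0.936.

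A single library set the lower end of the SAH 7d group. SAH 7d-5 was the lowest of 6 for 8 of the 10 members, the exceptions being Junb and Egr2. Against the median of the other 5 SAH 7d libraries, it was 21.4-fold lower for Arc, 20.4-fold lower for Egr4, 16.4-fold lower for Npas4, and 5.54-fold lower for Nr4a1, and Egr1 stood at 48.7 CPM against a median of 244. Fosb was 3.92-fold lower, Dusp1 2.70-fold, Egr2 2.44-fold and Fos 2.04-fold lower, and Junb was at 1.04 times the median. The 8 neuronal markers in this library were 2.38-fold (Stmn2) to 4.70-fold (Snap25) lower than in the other 5. Its monocyte and macrophage markers summed to 8396 CPM against 92.9 to 267 CPM in the other 5 SAH 7d libraries, its microglia markers to 2446 against 318 to 1013 CPM, and its meningeal fibroblast markers to 4185 against 269 to 433 CPM. The part of this in the low early gene levels was not tested. Without SAH 7d-5, no member was called against sham either, and the log2 fold changes were 0.32 for Egr1, 0.34 for Egr4 and 0.75 for Arc.

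Between SAH 7d and SAH 1d no member was called, against 1.37% of all genes. Npas4 was the member nearest the threshold: the 6 SAH 7d libraries lay between 0.574 and 14.4 CPM and the 6 SAH 1d libraries between 14.2 and 118 CPM, so the groups overlapped by 1 library, SAH 7d-6. Groups without overlap were seen for 3.05% of all genes and for no member. The log2 fold change of Npas4 was -2.16 (SE 0.66, edgeR adjusted p = 0.139), with an exact permutation p of 0.00433. It was called without SAH 7d-5 (log2 fold change -1.91, edgeR adjusted p = 0.0432), and by DESeq2 (adjusted p = 0.0130). Fos had a log2 fold change of -1.58 (SE 0.66, edgeR adjusted p = 0.281) and Fosb one of -1.43 (SE 0.79, edgeR adjusted p = 0.434). Without SAH 1d-5 these were -0.87 and -0.53. The SAH 1d libraries are common to this comparison and to that of SAH 1d with sham, so the values of Npas4 in both are not independent.

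**Figure D4:**
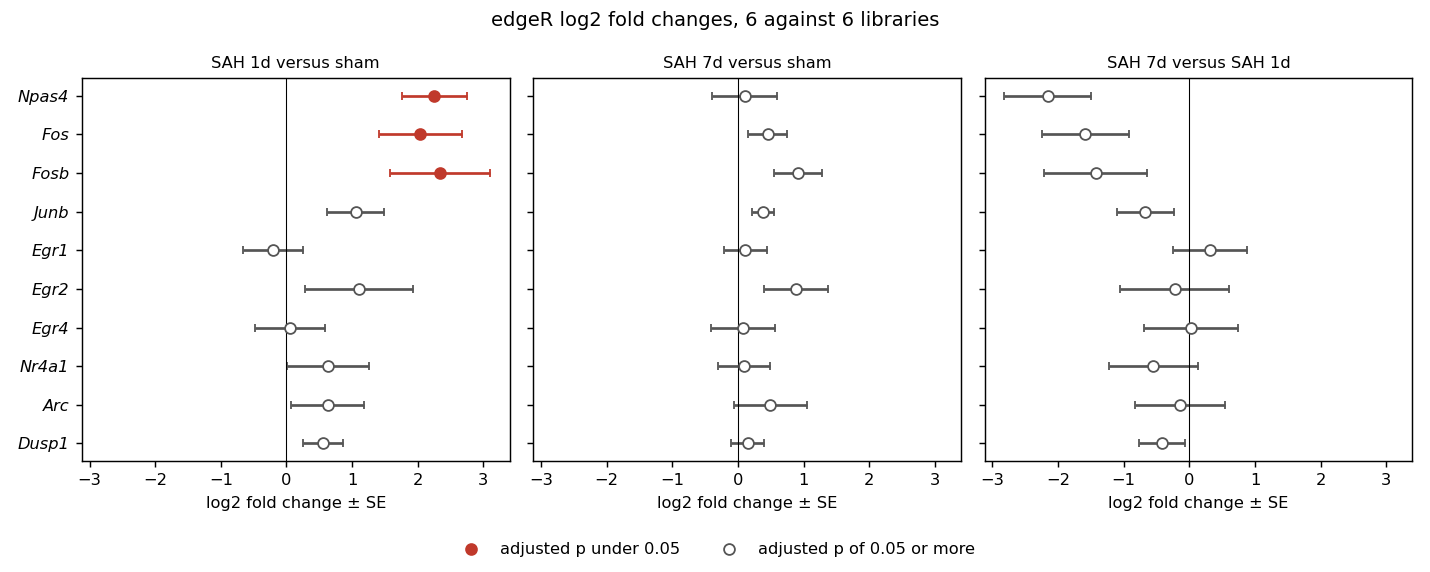
Log2 fold changes of the 10 genes in the 3 comparisons from edgeR, 6 against 6 libraries, where bars are the SE calculated from the F statistic. Filled red points (Npas4, Fos and Fosb in SAH 1d versus sham) have an adjusted p under 0.05, and all other points are open.

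The rest of the early response was followed in lists of related genes. Of 20 other early transcription factors, 19 were tested, and 8 were higher and 0 lower in SAH 1d than in sham, against 14.9% and 10.5% of all genes, with a median log2 fold change of 0.93. The largest changes were in Atf3, a stress-induced repressor of the CREB family (4.61, SE 0.63, edgeR adjusted p = 0.000389), and Maff, a small Maf factor (4.34, SE 0.61, edgeR adjusted p = 0.000505). Myc (2.31) and Fosl1 (2.02), a Fos relative linked to growth factor signaling, were also higher, as were Ier3, Klf4, Jun and Klf2. Atf3 lay between 0.429 and 1.66 CPM in sham and between 6.96 and 68.0 CPM in SAH 1d, so every SAH 1d library was above every sham library. Maff was 0.370 to 0.899 CPM in sham and 4.80 to 43.7 CPM in SAH 1d, again without overlap, which 7.89% of all genes showed in this direction. The highest library for Atf3, Maff, Myc and Fosl1 was SAH 1d-3, not SAH 1d-5. The 8 calls in this list were 8 also without SAH 1d-3 and without SAH 1d-5. Nr4a3 and Egr3, which followed the members across libraries, had log2 fold changes of 0.31 (SE 0.45, edgeR adjusted p = 0.641) and -0.16 (SE 0.46, edgeR adjusted p = 0.827).

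Of 18 activity-regulated effectors, 4 were higher and 1 was lower in SAH 1d, against 14.9% and 10.5% of all genes. Gadd45g and Gadd45b, which act in stress responses and DNA demethylation, had log2 fold changes of 2.21 (SE 0.50, edgeR adjusted p = 0.00722) and 2.13 (SE 0.38, edgeR adjusted p = 0.00192). Ptgs2, the inducible cyclooxygenase, had 1.79 (SE 0.38, edgeR adjusted p = 0.00556), and Sik1, a kinase that restrains CREB coactivators, had 1.55 (SE 0.28, edgeR adjusted p = 0.00227). SAH 1d-3 was the highest SAH 1d library for these 4 genes, and 4 effectors were called higher without it too. Homer1, a scaffold of the synapse, was lower, by a log2 fold change of -0.47 (SE 0.16, edgeR adjusted p = 0.0427). Without SAH 1d-3 the effectors called lower numbered 4, and without any one of SAH 1d-1, SAH 1d-2, SAH 1d-4, SAH 1d-6, sham-3, sham-4 or sham-6 they numbered 0. Bdnf, the neurotrophin whose promoters are targets of CREB and Npas4, had a log2 fold change of 1.03 (SE 0.73, edgeR adjusted p = 0.320); it is named here after its values were seen, as are Nr4a3 and Egr3 beside the transcription factors above.

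In a list of 11 ERK feedback inhibitors, among them relatives of Dusp1 and Sprouty proteins, Dusp5 (1.85, SE 0.55, edgeR adjusted p = 0.0274) and Spry4 (0.94, SE 0.19, edgeR adjusted p = 0.00361) were higher in SAH 1d. Dusp5 had 2.12 to 4.29 CPM in sham and 3.72 to 40.5 CPM in SAH 1d, with a median of 6.13, so the groups overlapped. SAH 1d-3 was the highest library for both genes, and 2 genes of the list were called higher without it too. The genes called higher were 2 of 11, against 14.9% of all genes, and none was lower. This count was 1 without any one of sham-2, sham-3 or sham-4. Of 18 upstream activators and EGR corepressors, 3 were higher and 4 were lower, against 14.9% and 10.5% of all genes. With all 18 libraries in 1 fit, 1 was higher and 2 were lower, and with limma on log2(FPKM + 1) 5 were higher. The lower genes were Camk4 (-1.001, SE 0.10, edgeR adjusted p = 5.6e-05), the nuclear calcium kinase that phosphorylates CREB, Camk2a (-0.91), the synaptic calcium kinase, Mef2c (-0.84), a neuronal transcription factor, and Crtc1 (-0.56), a CREB coactivator. Camk2a is also counted among the excitatory neuron markers below. Neuronal markers were lower in the same comparison, and their part in the lower upstream genes was not tested. The higher genes were Atf1 (0.60), a CREB relative, Nab2 (0.59), a corepressor that EGR proteins induce, and Rps6ka1 (0.46), a kinase downstream of ERK. Creb1 (0.12, SE 0.21, edgeR adjusted p = 0.712) and Srf (0.27, SE 0.11, edgeR adjusted p = 0.0972) did not pass the test.

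After 7 days none of these 4 lists had a called gene against sham. Between SAH 7d and SAH 1d, Maff was lower at 7 days (-3.23, SE 0.65, edgeR adjusted p = 0.0312), and no other gene of the 4 lists was called. This call was lost without SAH 1d-5, without any one of the SAH 7d libraries except SAH 7d-5, and with limma on log2(FPKM + 1) with no filter. When SAH 7d-5 was left out, 4 early transcription factors and 3 effectors were lower and 1 upstream gene was higher at 7 days. With SAH 1d-3 left out instead, 2 early transcription factors and 1 effector were lower. With neither library in the fit, 6 early transcription factors were lower, 3 effectors were higher and 3 lower, 1 ERK feedback inhibitor was higher and 1 lower, and 4 upstream genes were higher and 2 lower.

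**Figure D5:**
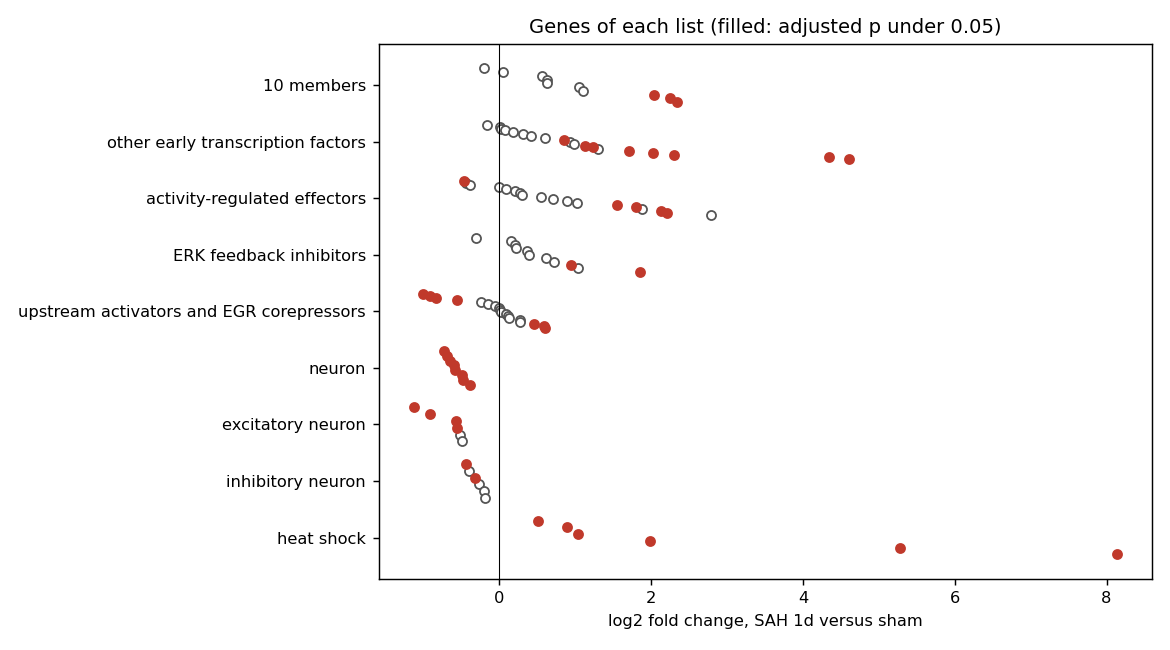
Log2 fold changes of SAH 1d versus sham for the genes of each list, 1 point per tested gene, with filled red points where the edgeR adjusted p is under 0.05. Among the 10 members 3 points are filled, the other early transcription factors reach 4.61, the upstream list lies on both sides of 0, and all 8 neuron markers lie below it.

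Markers of cell types and of stress moved in the same comparison. All 8 pan-neuronal markers were lower in SAH 1d, by log2 fold changes of -0.73 (Snap25) to -0.39 (Map2), as were 4 of 6 excitatory and 2 of 6 inhibitory neuron markers. The higher level of Npas4 was therefore measured in libraries with lower neuronal marker levels. The inhibitory count was 0 without sham-5 or without sham-6 and 1 without SAH 1d-2 or without SAH 1d-4, and the pan-neuronal count was 2 with all 18 libraries in 1 fit and 4 on the FPKM scale. The excitatory count was 1 with all 18 libraries in 1 fit, 2 with limma on log2(FPKM + 0.1) and 1 on log2(FPKM + 1) with no filter. All 6 heat shock genes tested were higher, up to 8.14 for Hspa1a, with list sums of 2383 to 2733 CPM in sham and 5132 to 6878 CPM in SAH 1d. Among other lists, 4 of 5 tested monocyte and macrophage markers, both tested neutrophil markers, 2 of 5 choroid plexus markers and 1 each of 7 astrocyte, 5 endothelial, 6 meningeal fibroblast and 3 T cell markers were higher, and 2 astrocyte markers and 1 of 6 microglia markers were lower. None of the oligodendrocyte, mural cell and red cell markers was called. The part of these changes in the early gene results was not tested.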

How the data were processed

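RNA-seq was performed on 18 rat cortex libraries, 6 per group, grouped by the sample labels. The deposited tables hold raw gene counts and FPKM values (fragments scaled by gene length and library total) made by the authors, with 1 column per library and 0 per-sample columns left unmapped. The submitters' processing notes name fastp, HISAT2, DESeq2 1.16.1 and the build mm9, whereas the study's methods name a rat genome and the rows are rat Ensembl genes, so no coordinates were taken from the tables. The counting program is not given in the sources used here. The library kit's strand setting is not stated, so overlapping genes could share reads.

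Counts of 12 libraries per comparison were tested in edgeR 4.0.16 (R 4.3.3) with TMM scaling, its default filter on low counts over all 18 libraries, the quasi-likelihood F test and Benjamini-Hochberg adjustment over 18444 genes, with calls at an adjusted p under 0.05. The procedure was tested on simulated counts. Log2 CPM used a prior count of 2. FPKM was used for levels between genes and, in limma 3.58.1 on log2(FPKM + 1), as an alternative. DESeq2 1.42.0, a replicate block and fits without each library were others. Exact permutation tests, 30 in all and unadjusted, were two-sided, in scipy 1.17.1. The study's methods describe 18 rats, 6 in each group, and the labels list 18 samples without naming animals. The p-values measure the spread between these samples.

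The members and gene lists were chosen with earlier results of these data known. Named genes are the 10 members, up to 4 called genes with the largest change from each of 4 pathway lists, and the 5 genes most like the mean profile of the members. Genes with provisional symbols were left out of that likeness ranking. Others are named where a count rests on them or as said beside them. Replicate numbers are shared between groups, but of 18 same-numbered pairs 1 had deviations correlated over 0.1 (range -0.25 to 0.20), so they were not treated as pairs. The list genes Ier2, Pecam1, Ccr2, Trac, Hbb-bs and Hspa1b are not analysed here, and Otx2, S100a8, Mpo, Elane, Cxcr2, Cd3d and Cd3g did not pass the filter.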

Additional observations from a re-analysis of the deposited data

Results flagged for a closer look

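On the log2 CPM scale, the highest or lowest of 6 libraries stood apart from the rest in 8 of 30 gene and group combinations. The gap there exceeded Dixon's 95% limit of 0.625 of the group's range in log2 CPM. The levels below are printed as CPM, on which the gaps make up other shares of the range. Chance alone would flag about 1 in 20 groups. The members vary together and share libraries, so these are not 8 independent events, and 6 of the 8 come from SAH 7d-5.

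SAH 7d-5 stood below the other 5 SAH 7d libraries for Egr1 (48.7 CPM against 181 to 356), Egr4 (1.42 against 19.0 to 39.7), Nr4a1 (10.9 against 44.0 to 74.1), Npas4 (0.574 against 6.98 to 14.4), Arc (8.59 against 137 to 219) and Dusp1 (27.6 against 62.5 to 91.2). The same library had 2.38-fold to 4.70-fold lower neuronal markers, whose part in this was not tested. SAH 1d-5 stood above the other 5 SAH 1d libraries for Npas4 (118 CPM against 14.2 to 28.3), while its neuronal markers were 0.94 to 1.31 times the median of those 5. SAH 7d-4 stood below the rest of SAH 7d for Junb (52.2 CPM against 77.4 to 87.8).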

How the results depend on the processing

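The call of Npas4 in SAH 1d versus sham held under every alternative run. In that comparison the members called numbered 1 instead of 3 with a replicate block, with limma on log2(FPKM + 1), on log2(FPKM + 0.1) and on log2(FPKM + 1) with no filter, and when SAH 7d-5 and SAH 1d-3 were both omitted, and 1 to 3 when single libraries were left out; the cause was not tested. In this comparison, omitting both of those libraries is the same fit as omitting SAH 1d-3. With limma voom 2 were called, Npas4 higher and Egr1 lower, and Fos and Fosb were not. With all 18 libraries in 1 fit 2462 genes were called instead of 4684. Against sham at 7 days 0 genes became 459 with DESeq2, 9 with all 18 libraries in 1 fit and 2 with limma voom and sample quality weights, and 0 to 3 when single libraries were left out. Between SAH 7d and SAH 1d the members called numbered 1 instead of 0 with DESeq2, with all 18 libraries in 1 fit, with both of those libraries omitted (Npas4 each time) and with limma voom (Egr1), and 0 to 1 when single libraries were left out. The 252 genes called there became 1012 with DESeq2, 779 with all 18 libraries, 406, 403 and 393 in the FPKM fits in the order above, 2719 with limma voom, 2512 without both of those libraries and 102 to 1545 without single libraries.

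Fold changes of members that were not called changed sign as follows. Against sham at 1 day they were -0.35 for Egr2, -0.78 for Egr4 and -0.22 for Nr4a1 with limma voom, and -0.35, -0.43 and -0.35 for Egr4 in the FPKM fits. Against sham at 7 days the FPKM fits gave -0.040, -0.047 and -0.040 for Egr1, -0.18, -0.33 and -0.18 for Egr4 and -0.020, -0.20 and -0.020 for Npas4. Between SAH 7d and SAH 1d limma voom gave 0.29 for Fosb, 1.60 for Egr2, 0.72 for Nr4a1, 0.98 for Arc and 0.10 for Dusp1, the FPKM fits gave 0.40, 0.68 and 0.40 for Egr2, and leaving out both libraries gave 0.07 for Egr2 and 0.32 for Arc.

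Replicate numbers did not pair the samples: in 3 of 18 same-numbered pairs the library correlated best with its own number. With the replicate block, 29 genes were called between SAH 7d and SAH 1d and 3979 in SAH 1d versus sham, and the signs changed for Egr4 (-0.62) and Nr4a1 (-0.033) at 1 day, for Egr1 (-0.068), Egr4 (-0.23) and Npas4 (-0.19) at 7 days, and for Egr2 (0.98), Nr4a1 (0.35) and Arc (0.36) between the days. Leaving out single libraries moved Egr2 from -0.076 to 1.64, Egr4 from -0.87 to 0.25 and Nr4a1 from -0.52 to 0.85 at 1 day, Egr1 from -0.087 to 0.32, Egr4 from -0.14 to 0.34, Nr4a1 from -0.067 to 0.32 and Npas4 from -0.11 to 0.36 at 7 days, and Egr2 from -0.58 to 0.95, Egr4 from -0.19 to 0.95, Nr4a1 from -0.75 to 0.59 and Arc from -0.34 to 0.42 between the days.

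Of the members' fold changes under all alternatives, 601 kept their sign and their side of the threshold, 57 changed sign, 6 came to pass the threshold and 26 no longer did. Counting error is small at these depths, 19 counts being the lowest for a member, so the spread between 6 libraries set the precision.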
